A study of Mus musculus with 12 samples.

Results

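Cytosolic ribosomal protein genes encode the proteins of the large and small subunits of the ribosome outside mitochondria. They were taken by symbol from the RefSeq annotation of GRCm38.p6 (mm10): protein-coding autosomal genes named Rpl or Rps with a number and at most 1 letter, plus Rpsa, Rplp0, Rplp1 and Rplp2. The rule found 77 genes among 20661 protein-coding autosomal genes, of which 44 belong to the large subunit, 30 to the small subunit and 3 to the P stalk. The X-linked genes Rpl10, Rpl36a, Rpl39 and Rps4x fell outside the rule; none had a SOX2 region within 50 kb, and the nearest lay 65.6 kb from Rps4x.

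SOX2 is a DNA-binding transcription factor of pluripotent cells, and its binding was mapped by ChIP-seq (sequencing of DNA pulled down with an antibody to it) in E14 mouse embryonic stem cells. The 12 libraries form 4 groups of 3 replicates: SOX2 ChIP from asynchronous cells, input DNA from asynchronous cells, SOX2 ChIP from mitotic cells and input DNA from mitotic cells. The culture medium of all groups contained leukemia inhibitory factor, 10% serum, CHIR99021 at 3 μM (a GSK3 inhibitor) and PD184352 at 0.8 μM (a MEK inhibitor). Mitotic cells were held overnight in nocodazole, a microtubule poison, then fixed, and H3S10p-positive cells, which carry the histone mark of condensed chromatin, were sorted. The line is a single established line, and no genotype other than E14 is given. Peaks were called once per condition with the replicates pooled, so no value below has a replicate error and no test was run.

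Ribosomal protein genes are among the most highly transcribed genes of growing cells. Their promoters are usually rich in G and C and often lack a TATA box, and their transcripts start within a run of pyrimidines, the terminal oligopyrimidine (TOP) tract, through which mTOR signalling controls their translation. Embryonic stem cells divide fast and need a steady supply of ribosomes. The question asked of the lists was where SOX2 regions lie relative to these genes, next to genes of similar length.

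The asynchronous list holds 10351 distinct regions and the mitotic list 84. Sequencing depth is unknown. In the asynchronous names, peak numbers run to 15590, and 5239 of them (33.6%) are not in the list, so a gene without a region is one without a listed region. Of 10 stem cell marker genes, all had an asynchronous region within 50 kb, where genes of similar length reached 43.9%. Within 1 kb, 8 of the 10 had one, among them Sox2, Pou5f1, Nanog and Esrrb, where genes of similar length reached 12.9%. Klf4 and Zfp42 had none within 10 kb, and the nearest region of Klf4, at 49.6 kb, was just inside the 50 kb limit.

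The promoters of the family are shown first. RefSeq promoter windows, from 250 bases before the annotated start to 50 after it, were matched for 57 of the 77 genes. The 4 sequences that follow belong to the genes with a region within 10 kb that had a promoter entry, each on GRCm38.p6. They run from 90 bases before the start to the first 20 transcribed bases; capitals mark the longest run of C and T that reaches within 10 bases of the start. Rps23 is at chr13:90923032-90923141 on the plus strand, Rps19 at chr7:24884502-24884611 on the plus strand, Rps26 at chr10:128626487-128626596 on the minus strand and Rps24 at chr14:24490588-24490697 on the plus strand.
Rps23: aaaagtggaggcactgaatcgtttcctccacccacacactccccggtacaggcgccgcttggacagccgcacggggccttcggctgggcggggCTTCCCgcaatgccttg
Rps19: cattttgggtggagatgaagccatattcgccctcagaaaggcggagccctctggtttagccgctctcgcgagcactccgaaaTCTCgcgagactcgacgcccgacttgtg
Rps26: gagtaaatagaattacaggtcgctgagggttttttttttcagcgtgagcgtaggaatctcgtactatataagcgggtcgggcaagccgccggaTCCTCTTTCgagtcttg
Rps24: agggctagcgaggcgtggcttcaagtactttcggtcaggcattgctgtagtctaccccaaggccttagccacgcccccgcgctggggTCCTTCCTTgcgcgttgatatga
The runs are 6 bases long in Rps23, 4 in Rps19, 9 in Rps26 and 9 in Rps24.

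The 3 longest runs among the 57 matched promoters stood in large subunit genes. None of these had a SOX2 region within 50 kb, which was so for 52 of all 77 genes. Rpl7a, at chr2:26910717-26910826 on the plus strand, had a run of 21 pyrimidines, and its nearest asynchronous region was 239 kb away. In Rpl27a, at chr7:109519105-109519214 on the plus strand, the run was 20 bases long and the nearest region 87.8 kb away, and in Rpl35, at chr2:39005112-39005221 on the minus strand, these values were 18 bases and 76.3 kb. These 3 are shown because their runs were the longest, a choice made after the values were seen.
Rpl7a: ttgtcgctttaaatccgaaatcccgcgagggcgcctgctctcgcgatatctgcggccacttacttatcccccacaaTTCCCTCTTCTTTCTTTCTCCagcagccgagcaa
Rpl27a: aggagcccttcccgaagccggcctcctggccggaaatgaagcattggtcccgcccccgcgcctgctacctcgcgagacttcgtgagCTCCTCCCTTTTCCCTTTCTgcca
Rpl35: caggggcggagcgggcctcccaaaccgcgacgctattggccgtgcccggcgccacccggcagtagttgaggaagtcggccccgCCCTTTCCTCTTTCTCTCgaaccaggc
Pyrimidine runs of at least 8 bases that reach within 10 bases of the start were present in 26 of 57 promoters of the family (45.6%). They were present in 13.7% of the 16456 promoters of all protein-coding autosomal genes. Some of the runs end before the annotated start, as the run of 14 bases in Rps25 does, so a counted run need not be transcribed. A C at the annotated start was present in 20 of 57 (35.1%) and 13.8% of all.

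SOX2-type letters were no more frequent in these windows than elsewhere. CATTGT, a core of SOX motifs, was found on either strand in 4 of 57 promoters (7.02%; Rpl10a, Rpl13a, Rpl15 and Rps27l) and in 10.6% of all. CTTTGT, the other core searched, was in 6 of 57 (10.5%) and 16.5% of all, and the octamer ATGCAAAT, bound by POU factors such as OCT4, in 0 of 57 and 1.74%. TATAAA between 40 and 16 bases before the start occurred in 0 of 57 and in 2.90% of all. Only these exact letters were searched, so the 0 does not mean that no promoter has a TATA-like sequence. The Rps26 promoter printed above reads tatataag in that stretch. Median GC content was 57.0% against 56.7%. Each motif was counted on its own, also where matches overlapped, and a match says only that the letters are there.

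No asynchronous region overlapped any of the 57 promoter windows. Of all 16456 promoters, 1.73% had such an overlap, which would give 0.984 among 57. A count of 0 of 57 allows a share of up to 5.26%, so the difference from the background was not detectable with this number of genes.

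Only Rps23 had an asynchronous region within 1 kb of its span. Rps23 encodes a small subunit protein at the decoding centre (chromosome 13, 90923122 to 90924732). Its region, at 90925199 to 90925384, was 186 bp wide, near the smallest width of the list (183 bp), and its midpoint lay 0.559 kb beyond the downstream end of the gene. That count is 1 of 77 genes (1.30%, exact 95% interval 0.0329 to 7.02%), where 17.2% of all protein-coding autosomal genes had a region within 1 kb.

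Gene length moves with this share. Ribosomal protein genes are short, with a median span of 3.18 kb (0.592 kb for Rpl32l to 11.8 kb for Rps15a) against 17.5 kb for all genes. Among other genes, the share with a region within 1 kb ranged from 1.56% in the shortest of 10 length classes to 59.0% in the longest. Weighted by the length classes of the family, it was 5.29%, equal to 4.07 of 77 genes. The length-matched share lies inside the interval of the family, so 1 gene against 4.07 is not a difference beyond counting error.

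Within 10 kb, 6 of the 77 genes had an asynchronous region (7.79%, exact 95% interval 2.91 to 16.2%), each exactly 1. All genes reached 24.7% and length-matched genes 14.0% (10.8 of 77), a value again inside the interval. Besides Rps23 these genes were Rpl32, Rps19, Rps26, Rpl3 and Rps24. The step across the 10 kb limit was between Rps24 at 8.29 kb and Rps20 at 12.03 kb.

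Of these 6 regions, 5 lay nearer to another gene. The region 2.31 kb from Rpl32, a large subunit gene on chromosome 6 (115805514 to 115808743), was inside Efcab12, at 115810849 to 115811251. Rps19, a small subunit gene mutated in Diamond-Blackfan anaemia (chromosome 7, 24884592 to 24889811), had a region 4.82 kb upstream, at 24879515 to 24880029. That region was nearer to Dmrtc2, at 2.12 kb, and with 515 bp it was the widest of the 6.

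Rps26, whose protein lines the mRNA exit channel (chromosome 10, 128624529 to 128626506), had a region 5.31 kb upstream, at 128631682 to 128631940. It lay inside Ikzf4, an Ikaros family transcription factor gene. Rpl3, a large subunit protein close to the peptidyl transferase centre (chromosome 15, 80077781 to 80083406), had a region 7.62 kb away, at 80090809 to 80091245, and 0.307 kb from Syngr1, a synaptic vesicle protein gene. For Rps24, another Diamond-Blackfan gene (chromosome 14, 24490678 to 24496960), the region was 8.29 kb upstream, at 24482205 to 24482563, inside Polr3a, which encodes the largest subunit of RNA polymerase III.

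**Figure D1:**
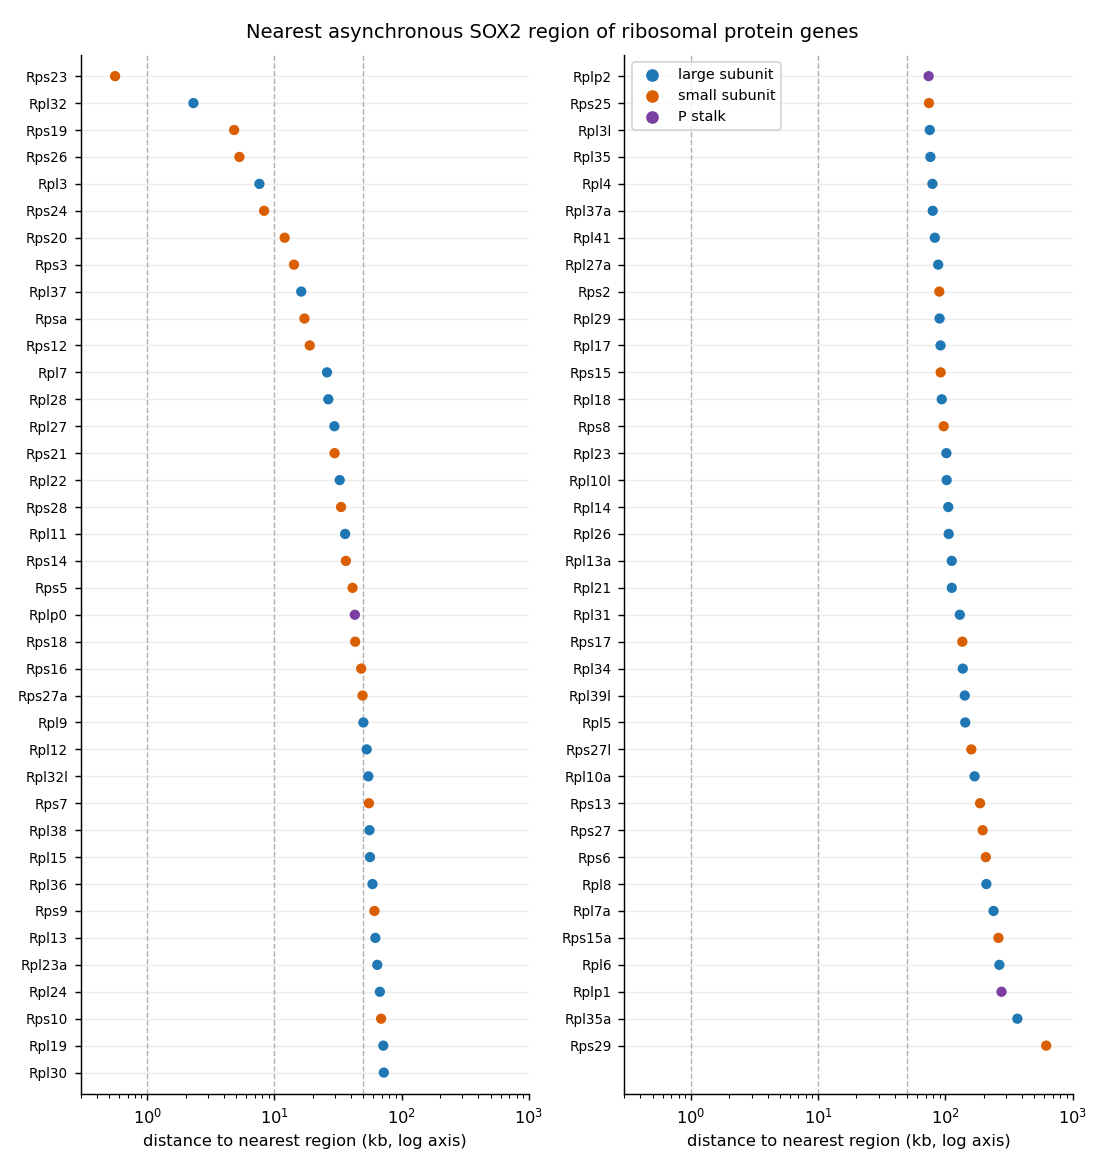
Distance in kb (log axis) from 75 of the 77 ribosomal protein gene spans to the midpoint of its nearest asynchronous SOX2 region, with 1 point per gene, coloured by subunit, and dashed lines at 1, 10 and 50 kb. Rps23 is alone below 1 kb, 6 genes lie below 10 kb, and most points gather beyond 50 kb, up to 620 kb for Rps29.

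Within 50 kb, 25 of the 77 genes had a region (32.5%, exact 95% interval 22.2 to 44.1%), against 47.2% of all genes and 37.7% of length-matched genes (29.0 of 77). Of the 25 genes, 8 had more than 1 region. Rpl22, a large subunit protein that also binds other RNAs, had the most, with 4 regions 32.6 to 38.1 kb upstream, all inside Hes3, a repressor gene of the Hes family.

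Genes with 2 regions were Rpl27, Rpl28, Rpl32, Rps3, Rps12 and Rps14. Both regions of Rps14, at 36.5 and 44.5 kb, lay inside Tcof1, a gene for a factor of ribosomal RNA transcription. The widest region near any of the 77 genes was 899 bp, 25.9 kb from Rpl7 and inside Rdh10, a retinol dehydrogenase gene. At the 50 kb limit, Rps27a, which encodes a small subunit protein fused to ubiquitin, was just inside at 49.3 kb, and Rpl9 just outside at 50.05 kb.

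The 25 genes had 36 regions in all, and a ribosomal protein gene was the nearest protein-coding gene for 3 of them. These were the regions 0.559 kb from Rps23, 12.03 kb from Rps20, a small subunit gene, and 36.0 kb upstream of Rpl11, whose protein also binds the p53 regulator MDM2. The other 33 had another gene nearer, and 22 of the 36 lay inside another gene, a count with no share of the whole list beside it. As a share of gene and region pairs within 50 kb, the ribosomal protein gene was the nearest in 8.33%, against 24.4% for other genes weighted by length class. These shares were not matched on the gap to the nearest neighbouring gene, whose median was 1.84 kb in the family and 4.84 kb for all genes. The difference was not tested.

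The regions themselves were ordinary in width. Their median was 289 bp (184 to 899 bp), and that of the whole asynchronous list was also 289 bp. Where the promoter table gave the strand, 14 regions lay upstream and 10 downstream; for 12 the strand was not used here.

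**Figure D2:**
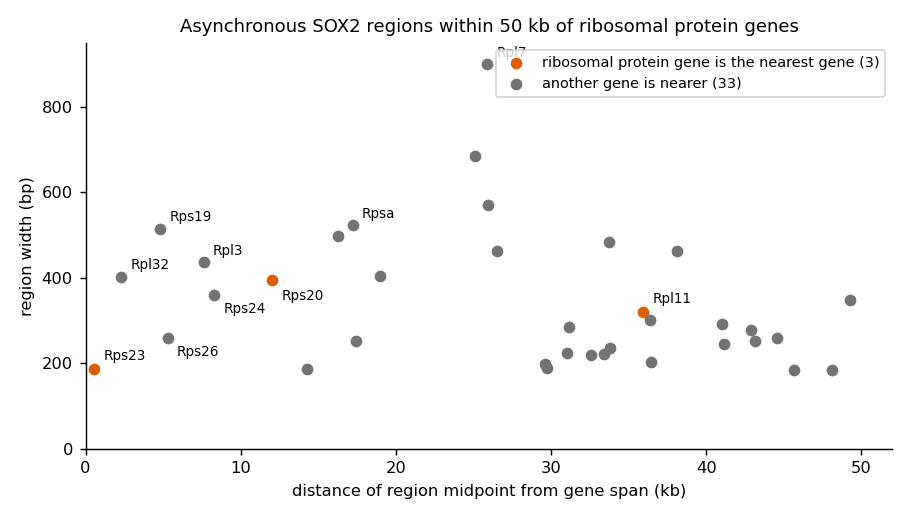
Width in bp of the 36 asynchronous regions within 50 kb of a ribosomal protein gene, against the distance of the region midpoint from the gene span in kb. Orange points are the 3 regions whose nearest gene is a ribosomal protein gene (Rps23, Rps20 and Rpl11), and grey points the 33 with another gene nearer; widths reach 899 bp near Rpl7.

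Farther out the order turned. Between 50 and 100 kb lay the nearest region of 28 genes, so that 53 of 77 (68.8%, exact 95% interval 57.3 to 78.9%) had one within 100 kb, against 57.2% of length-matched genes, just under the lower bound. Within 250 kb the shares were 93.5% (interval 85.5 to 97.9%) and 82.8%, with the length-matched value below the interval. The median distance to the nearest region was 72.4 kb (interquartile range 36.5 to 112 kb), and for length-matched genes it was 80.2 kb (24.4 to 175 kb), so the family spans a narrower range.

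Counted as regions per gene, the same turn appears by distance band. There were 0.0130 regions per ribosomal protein gene up to 1 kb, against 0.0565 per length-matched gene, and 0.0649 against 0.106 from 1 to 10 kb. From 10 to 50 kb the values were close, at 0.390 and 0.402. From 50 to 100 kb the family had 0.753 against 0.502, a ratio of 1.502, from 100 to 250 kb 2.00 against 1.53, and from 250 to 500 kb 3.03 against 2.50. The bands beyond 50 kb were chosen after the counts within it were seen, and neighbouring genes can count the same region.

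**Figure D3:**
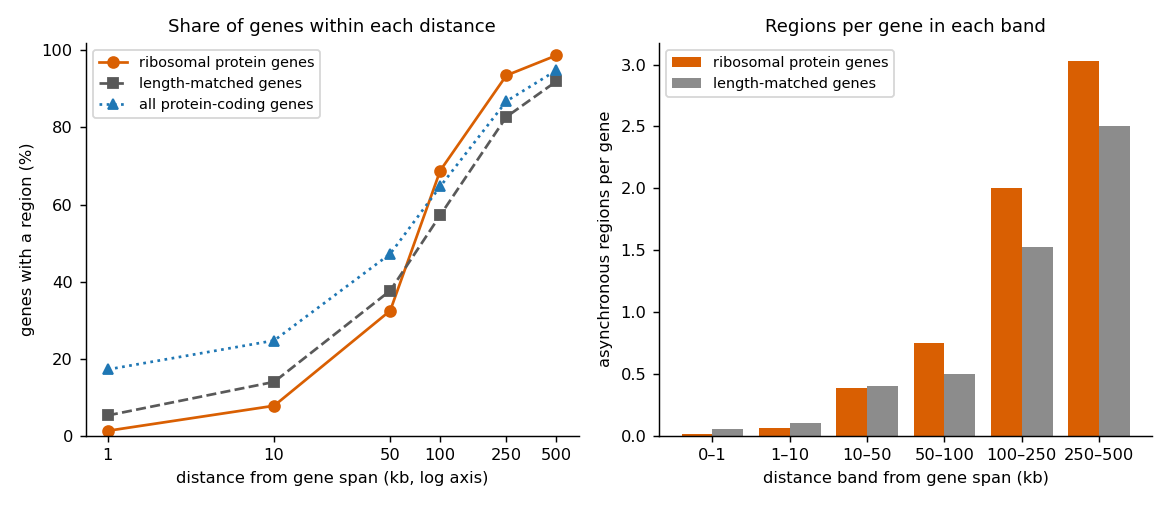
Left, share of genes (%) with an asynchronous region within 1 to 500 kb of the gene span (log axis) for ribosomal protein genes, length-matched genes and all protein-coding genes. Within 10 kb these shares are 7.79% for the family and 14.0% for length-matched genes. Right, regions per gene in 6 distance bands. Here the family is below length-matched genes up to 10 kb (0.0649 against 0.106 from 1 to 10 kb). It is above them from 50 kb outward (0.753 against 0.502 regions per gene from 50 to 100 kb).

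Matching on gene density as well as length changed these values little. The family had a median of 11 other protein-coding genes within 250 kb, against 9 for all genes, and its median gap to the nearest neighbouring gene was 1.84 kb against 4.84 kb. With genes matched on length and on the number of genes within 250 kb together, an alternative chosen after the data were seen, the ratio in the 50 to 100 kb band was 1.52 and that up to 1 kb was 0.241, against 0.230 with length alone.

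Large and small subunit genes differed in their counts. Of 44 large subunit genes, 0 had a region within 1 kb (a count of 0 allows up to 6.82%), 2 within 10 kb (Rpl32 and Rpl3) and 9 within 50 kb (20.5%, exact 95% interval 9.80 to 35.3%), where length-matched genes reached 38.6%. Of 30 small subunit genes, 1 had a region within 1 kb, 4 within 10 kb and 15 within 50 kb (50%, interval 31.3 to 68.7%), where length-matched genes reached 36.6%. Median distances were 77.7 kb for the large and 52.3 kb for the small subunit. The intervals of the subunits overlap, the split was made after the values were seen, and the difference was not tested.

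Large subunit genes with a region within 50 kb included Rpl7, Rpl11, Rpl22, Rpl28 and Rpl37. Among small subunit genes were Rpsa, also known as a laminin receptor, with a region 17.2 kb downstream and 0.158 kb from Mobp, and Rps3, whose protein sits at the mRNA entry channel, with the nearer of its regions 14.2 kb downstream inside Klhl35. Rps12 had both of its regions inside Slc18b1, 19.0 and 26.0 kb upstream. Of the P stalk genes, whose proteins recruit translation factors to the ribosome, Rplp0 had 1 region, 42.9 kb upstream inside Pxn, while the nearest regions of Rplp2 and Rplp1 were 73.9 and 276 kb away.

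At the far end was Rps29, with its nearest region 620 kb away, inside Cdkl1. It was followed by Rpl35a (368 kb), Rplp1 (276 kb), Rpl6 (266 kb) and Rps15a (261.4 kb). Rps6, the small subunit protein phosphorylated by S6 kinases, had its nearest region at 208 kb, and Rpl5, which binds MDM2 together with Rpl11, at 143 kb. The paralogs with restricted expression or a divergent role, Rpl3l of muscle, Rpl10l and Rpl39l of testis and the p53 target Rps27l, had no region within 50 kb, with nearest distances of 75.4, 102.4, 142 and 160 kb. Of all 77 genes, 52 had none within 50 kb, so the absence is not particular to these paralogs.

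Members seldom share a locus. Rps2 and Rpl3l on chromosome 17 lay within 50 kb of each other, and neither had a region within 50 kb. Chromosome 7 carried the most members, 14, of which 5 had a region within 50 kb, among them Rps19, Rps3 and Rpl28.

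The peak numbering bears on genes without a region. Numbers rise with position in the list. A numbered peak that is not listed could therefore lie near a gene only where the numbers of its flanking regions skip. A site that never received a number leaves no skip, so consecutive numbers do not exclude one. Of the 76 genes without a region within 1 kb, 29, among them Rpl11, Rpl6 and Rplp0, had flanking regions with consecutive numbers. The other 47 (61.8%) had at least 1 skipped number somewhere between the flanking regions, as did 60.4% of length-matched genes. For Rps29, 5 numbers were skipped.

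The family also has many processed pseudogenes, which resemble the parent genes in sequence and can take reads from them. The annotation names 281 ribosomal protein pseudogenes on autosomes, of which 269 carry the name of one of 55 of the 77 genes, up to 23 for Rpl31. Of the 281 pseudogenes, 3 (1.07%; Rpl36a-ps3, Rps18-ps3 and Rpsa-ps4) had an asynchronous region within 1 kb, against 1.36% of the 8610 other pseudogenes. Within 10 kb the shares were 12.8% and 7.51%. How multiply mapping reads were treated is not given in the sources used here, and its part in the counts at Rps23 and the other genes was not tested.

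Small nucleolar RNA genes, which guide modification of ribosomal RNA, lay inside 27 of the 77 genes, 56 in all. Of these host genes, 2 (7.41%; Rpl32 and Rpl3) had a region within 10 kb and 9 (33.3%), Rps12 among them, within 50 kb, close to the 7.79% and 32.5% of the whole family.

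Other genes of protein synthesis, most of them longer, had higher shares within 10 kb than the cytosolic family, though not all stood above genes of their own length. Of 78 mitochondrial ribosomal protein genes, which serve the separate ribosome of mitochondria, 11 had a region within 1 kb (14.1%, length-matched 9.001%), 21 within 10 kb (26.9%, exact 95% interval 17.5 to 38.2%, length-matched 17.4%) and 47 within 50 kb (60.3%, interval 48.5 to 71.2%, length-matched 41.9%). Mrps2, Mrps28 and Mrpl37 were among those within 1 kb. At 10 kb the interval of the mitochondrial set (17.5 to 38.2%) lies above that of the cytosolic set (2.91 to 16.2%), and at 50 kb likewise (48.5 to 71.2% above 22.2 to 44.1%). The mitochondrial genes are longer (median 7.69 kb). Length-matched shares were 17.4% for the mitochondrial and 14.0% for the cytosolic set at 10 kb, and 41.9% and 37.7% at 50 kb. The difference between the sets was not tested.

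Genes named Eif, mainly initiation factors, had a region within 10 kb in 13 of 53 (24.5%, length-matched 21.99%) and within 50 kb in 26 (49.1%, length-matched 46.8%). Genes named Eef, which include elongation factors and the enzymes that modify them, had one within 10 kb in 3 of 15, namely Eef1d, Eef1g and Eef2kmt (20%, length-matched 19.4%), and within 50 kb in 8 (53.3%, length-matched 44.7%). Of 39 ribosome biogenesis genes, 7 (17.9%, length-matched 19.98%) had a region within 10 kb, among them Rrn3 and Ubtf of RNA polymerase I transcription, and 20 (51.3%, length-matched 44.9%) within 50 kb. Of 8 genes close to the family but outside the rule, Rrs1 had a region within 1 kb and Fau, a fusion gene of a small subunit protein, within 10 kb, while Rack1 and Rpl36al had none within 50 kb.

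**Figure D4:**
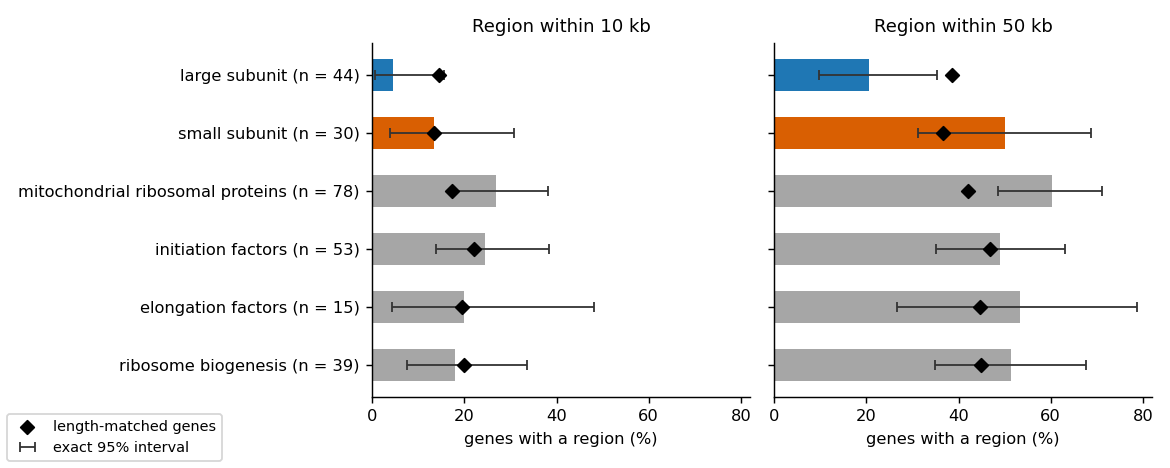
Share of genes (%) with an asynchronous region within 10 kb (left) and 50 kb (right) for the 2 ribosomal subunits and 4 other sets of protein synthesis genes; bars are the observed shares with exact 95% intervals, and diamonds the share of genes weighted to the same length classes. Large subunit genes stand at 20.5% against 38.6% within 50 kb, and mitochondrial ribosomal protein genes at 60.3% against 41.9%.

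No mitotic region lay near a ribosomal protein gene. The counts were 0 of 77 within 1, 10 and 50 kb, where 0.266%, 0.363% and 0.886% of all genes had one. The nearest mitotic region of any member was 259 kb from Rps15. A count of 0 of 77 allows a share of up to 3.896% (exact upper limit 4.68%), and length-matched genes would give 0.551 genes within 50 kb, so that a difference between the family and other genes in mitosis was not detectable. The mitotic list also had the looser threshold and far fewer regions, so its counts are not set against the asynchronous ones here.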

How the data were processed

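Per the submitters' processing notes, reads were aligned with Bowtie2 2.2.1 and the notes name MACS2 and mm10; the MACS2 version is not given in the sources used here. As the deposited names show, the authors called peaks of ChIP against input on 3 pooled replicates, at q-value tags read as 0.01 (asynchronous) and 0.05 (mitotic), and removed blacklisted regions. The deposited files hold only peak positions (unit: other, in bp) and names. Starts were converted to count from 1, and 181 repeated asynchronous entries of 10532 were merged.

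Distances run from the region midpoint to the RefSeq gene span (GRCm38.p6). Length-matched shares are those of non-members in 10 length classes, weighted as the members. Intervals are exact (Clopper-Pearson, 95%) and, like the limit of 3 counts for a 0, cover counting error only and treat genes as independent. Depth is unknown. Expression is not in the files, so no match on it was made. Counting was tested on simulated data (Python 3.11.15, numpy 2.4.6, pandas 2.3.3, scipy 1.17.1).

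The members, lists and windows were chosen with earlier results of these data known. Named genes were all members with a region within 10 kb, the 5 with the most regions within 50 kb, the 5 farthest, any with a mitotic region, and the nearest gene of each region within 10 kb; other genes in the text were picked with their values in view. A few genes are not reported here. Promoters with an overlapping region were to be printed; there were 0, so those shown were chosen afterwards.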

Additional observations from a re-analysis of the deposited data

How the results depend on the processing

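No paired analysis was possible because each condition has 1 list called on pooled replicates, and for the same reason no replicate could be left out. Of 60 recomputed values over 9 results, 46 stayed within 1.5 times for counts or within the counting interval for shares. The 46 include all 0 counts of mitotic regions, which no setting could raise because the nearest mitotic region lay 259 kb from any member. Those 0 counts therefore say nothing about stability. With regions wider than the median only, the counts became 0 of 77 within 1 kb and 14 within 50 kb, and the length-matched shares 2.26%, 6.51% and 20.4% within 1, 10 and 50 kb. When a region counted only for its nearest gene, the counts were 1 gene within 10 kb and 3 within 50 kb, with length-matched shares of 4.69%, 8.42% and 11.003%. Measured to the gene start, for the 57 genes with a strand, the counts were 0 within 1 kb and 16 within 50 kb; measured to the span, the same 57 genes gave 1 and 17, a setting chosen after the data were seen. Matching on length and neighbour gap together raised the matched share to 14.9% within 10 kb and 41.4% within 50 kb. The cause of the change with neighbour gap was not tested. In every one of these settings that gives both values, the share of the family was below the matched share. The settings reuse the same genes and regions, so they are not independent, and they reach no farther than 50 kb. In the main setting the matched shares lay inside the intervals of the family at 1, 10 and 50 kb. This did not hold in every setting. With the nearest gene only, the matched share within 10 kb (8.42%) lay above the interval for 1 of 77 (0.0329 to 7.02%). That setting was not matched on neighbour gap, and the difference was not tested. In the main setting, the order of family and matched genes was reversed within 100 kb (68.8% against 57.2%) and 250 kb (93.5% against 82.8%).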
